A study of Mus musculus with 12 samples.

Results

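Bnip3, Bnip3l, Fundc1 and Pink1 are 4 of the 32285 genes counted in the livers of control and anemic neonatal mice, and they are described here as genes that mark mitochondria for removal by autophagy. The 4 were matched by symbol to the deposited gene table. Bnip3 was chosen by its UMI counts, which were higher in several immune cell classes of anemic mice, so its difference between control and anemic mice is given as a description without a test. Bnip3l was added for its known role in red cell maturation, and Fundc1 and Pink1 as relatives in the same process, and differences in these 3 genes were tested.

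Damaged or surplus mitochondria are enclosed in autophagosomes and degraded in lysosomes, a process called mitophagy. Bnip3, Bnip3l (also called Nix) and Fundc1 are receptors in the outer mitochondrial membrane that bind the lipidated proteins on the growing autophagosome directly. Pink1 is a kinase that accumulates on depolarized mitochondria and starts the ubiquitin-dependent arm of the process. Transcription of Bnip3 is raised by the hypoxia-inducible factors (HIF), Bnip3l removes mitochondria from reticulocytes as they become red cells, and Fundc1 is controlled mainly through phosphorylation of its protein.

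The study compared 6 control pups with 6 pups made anemic by repeated bleeding, with 1 droplet single-cell library from the dissociated, unsorted liver of each. All pups were of the C57BL6/J strain, with no transgene or deletion named. The anemic group lost 20 µL of blood per g body weight from the facial vein on postnatal days 2, 4, 6, 8 and 10. The bleeding was meant to take the hematocrit from 45–60% down to 20–24%. Control pups were handled and received a needle stick, and livers were collected on day 11. The 12 libraries carry a single batch label, and no label ties a mouse to a litter.

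The libraries held between 46252146 and 74545930 UMIs (unique molecular identifiers, each counting 1 captured RNA molecule), and 206146 of 207537 cell barcodes were kept, 98075 from control and 108071 from anemic mice. Clustering with the 4 genes left out gave 62 clusters, of which 38 could be named from fixed markers and were joined into 18 classes holding 183225 cells (88.9%). Classes are called by their markers with the ending -like, and the 8 hepatocyte markers, led by Alb, and the 8 endothelial markers, led by Pecam1, checked the liver label. The cluster of granulocyte progenitor-like cells also carried megakaryocyte markers. Pairs of libraries shared at most 122 barcodes, 0.691% of the smaller library. UMIs were summed per mouse and class, and levels below are in CPM, meaning UMIs of the gene for every 1000000 UMIs that the class held in a mouse.

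In the GRCm38 annotation, all 4 members lie on the minus strand. Bnip3 (ENSMUSG00000078566) spans chr7:138890836-138909519, Bnip3l (ENSMUSG00000022051) chr14:66985239-67008877, Fundc1 (ENSMUSG00000025040) chrX:17556564-17572325 and Pink1 (ENSMUSG00000028756) chr4:138313409-138326307. The libraries count the 3′ end of transcripts over the whole gene, and the promoter below was not itself measured. It is shown because Bnip3 is a known HIF target and other HIF targets are described beside it, and the core letters bound by HIF are ACGTG or GCGTG. The window runs from 250 bases before to 50 bases after the RefSeq start of Bnip3 (GRCm38.p6, chr7:138909457-138909756, minus strand), and the capitals mark ACGTG on the printed strand, 107 bases before the start, overlapped by ACGTG on the opposite strand 1 base further out.
Bnip3: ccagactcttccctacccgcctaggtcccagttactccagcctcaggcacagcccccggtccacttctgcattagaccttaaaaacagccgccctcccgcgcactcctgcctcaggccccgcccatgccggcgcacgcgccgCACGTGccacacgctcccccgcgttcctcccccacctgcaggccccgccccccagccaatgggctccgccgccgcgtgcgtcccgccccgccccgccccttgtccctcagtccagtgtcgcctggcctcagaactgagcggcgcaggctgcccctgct

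GCGTG was found at a further 3 positions of the Bnip3 window, 35 bases before the start on the printed strand and 117 and 99 bases before it on the opposite strand. The same window of Pink1 held a single GCGTG. The RefSeq window of Fundc1 lay wholly inside the gene as positioned above and is not described, and no window was read for Bnip3l. Among the windows of 27025 genes, read on both strands, 21.78% held ACGTG and 35.15% held GCGTG. A match describes letters only and was not tied to binding or to any difference in these libraries.

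Bnip3 was highest in hepatocyte-like and endothelial-like cells and lowest in globin-dominated erythroid-like cells. Its mean level over 12 mice was 338.8 ± 215 CPM (SD, n = 12) in hepatocyte-like and 135.9 ± 51.9 CPM in endothelial-like cells. Macrophage-like (56.4 CPM), neutrophil-like (55.9 CPM) and monocyte-like cells (55.3 CPM) followed and were not separable from each other, then cycling B-lineage (45.7 CPM), pre-B-like (44.4 CPM), resting B-lineage (36.5 CPM), basophil and mast-like (36.1 CPM) and granulocyte progenitor-like cells (31.2 CPM). The 8 lowest classes ran from 22.2 CPM in conventional dendritic-like cells to 8.90 CPM in globin-dominated erythroid-like cells. The highest class stood 38.1-fold above the lowest, yet 16 of 17 neighbours in this order differed by less than the larger of their SDs, and only the step from endothelial-like to macrophage-like cells was larger. These SDs hold both groups, and so include the difference between control and anemic mice.

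**Figure D1:**
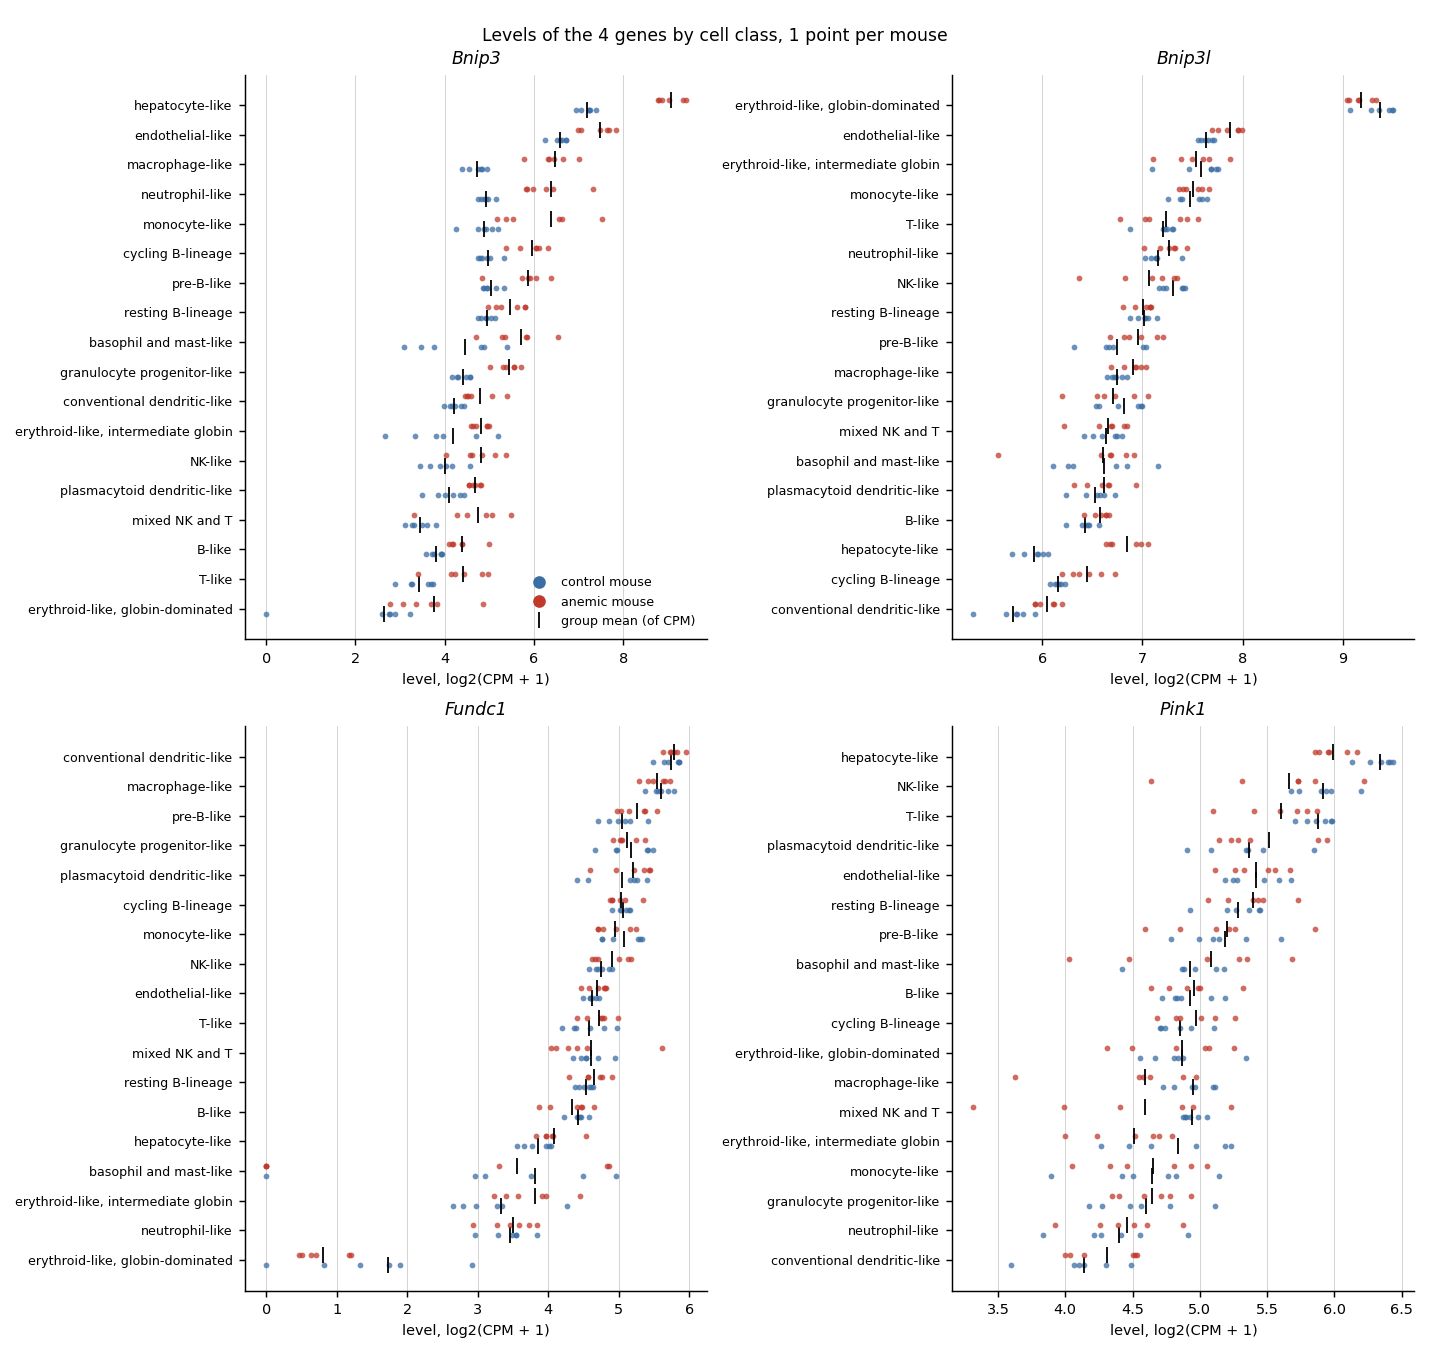
Levels of Bnip3, Bnip3l, Fundc1 and Pink1 in 18 cell classes as log2(CPM + 1), 1 point per mouse (blue, 6 control mice; red, 6 anemic mice), with black ticks at the log2(CPM + 1) of the group mean and classes ordered by their mean over 12 mice. The red Bnip3 points lie to the right of all blue points in 9 classes, and globin-dominated erythroid-like cells stand apart at the top for Bnip3l.

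Mean Bnip3 was higher in anemic than in control mice in every class, and the values that led to its choice are given without a test. The log2 fold change estimated by edgeR was above 0 in 18 of 18 classes, from 0.53 in resting B-lineage to 2.05 in hepatocyte-like cells, with a median of 1.08. In 9 of 18 classes every anemic mouse lay above every control mouse, where 1.09% of all genes tested over the 18 classes were separated in this way. Those 9 were hepatocyte-like, endothelial-like, macrophage-like, neutrophil-like, cycling B-lineage, granulocyte progenitor-like, conventional dendritic-like, plasmacytoid dendritic-like and B-like cells.

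In hepatocyte-like cells Bnip3 measured 121, 149.7 and 166 CPM (lowest, median and highest mouse) in controls and 439, 494 and 680 CPM in anemic mice. The groups were far apart, with means of 145 ± 15.8 CPM (SD, n = 6) and 533 ± 105 CPM (n = 6), a 3.68-fold difference in means (log2 fold change 2.05, SE 0.12). Endothelial-like cells, which line the vessels of the liver, had 74.9, 96.1 and 104 CPM in controls and 126, 187 and 227 CPM in anemic mice, again without overlap (log2 fold change 1.03, SE 0.13).

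Among immune classes, Bnip3 differed most in macrophage-like cells, with 20.0, 26.5 and 30.0 CPM in controls and 53.8, 82.6 and 127 CPM in anemic mice (log2 fold change 1.85, SE 0.17). Neutrophil-like cells had 25.9, 28.9 and 34.7 CPM against 55.4, 69.4 and 159 CPM (log2 fold change 1.45, SE 0.24). In both classes every anemic mouse was above every control mouse. Monocyte-like cells had 17.97, 28.9 and 35.8 CPM in controls and 34.9, 69.0 and 183 CPM in anemic mice (log2 fold change 1.73, SE 0.39), and 5 of 6 anemic mice exceeded every control. The highest monocyte-like and neutrophil-like values both came from anemic mouse 2, and without that mouse the log2 fold changes were 1.25 and 1.15.

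In the lymphoid classes the log2 fold change of Bnip3 ran from 0.53 to 1.60. Cycling B-lineage cells had 25.9, 28.6 and 39.2 CPM in controls and 40.7, 64.8 and 78.3 CPM in anemic mice, with no overlap (log2 fold change 1.06, SE 0.12). B-like cells ranged from 11.0 to 14.4 CPM in controls and from 16.2 to 30.7 CPM in anemic mice (log2 fold change 0.63, or 0.47 without anemic mouse 5). NK-like cells (9.93 to 22.5 against 15.3 to 40.5 CPM; 0.86) and T-like cells (6.35 to 12.4 against 9.53 to 30.4 CPM; 1.11) overlapped between groups, with 5 of 6 anemic mice above every control in each. The cluster that mixed NK and T markers gave a log2 fold change of 1.60, and 1.28 without anemic mouse 2. Resting B-lineage cells had 26.0, 29.4 and 34.0 CPM in controls and 30.3, 42.8 and 54.7 CPM in anemic mice, with 5 of 6 anemic mice above the controls.

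The other myeloid classes showed the same direction. Granulocyte progenitor-like cells had 16.8, 20.0 and 22.8 CPM in controls and 31.3, 43.0 and 51.5 CPM in anemic mice, without overlap. Conventional dendritic-like cells (14.8 to 20.5 against 20.9 to 41.2 CPM) and plasmacytoid dendritic-like cells (10.3 to 20.4 against 22.2 to 27.1 CPM) were separated by small margins, with log2 fold changes of 0.54 and 0.60. Counts were thin in basophil and mast-like cells (70 UMIs in all, log2 fold change 1.30) and in globin-dominated erythroid-like cells, where Bnip3 ranged from 0 to 8.38 CPM in controls and from 5.88 to 27.8 CPM in anemic mice. The value of 0 came from control mouse 3, in which 151485 UMIs of the class allow a level of up to 19.8 CPM (3 counts; counting error only). In this class cluster 38 held 182 Bnip3 UMIs, with 36.1% of its cells called doublets (probably 2 cells in a droplet) and 2.22% hepatocyte RNA. Its Bnip3 mean over mice with at least 20 cells was 61.1 CPM, against 4.50 to 8.00 CPM in clusters 1, 2 and 18. Erythroid-like cells of intermediate globin had 5.31, 13.8 and 35.5 CPM in controls and 22.9, 27.4 and 30.9 CPM in anemic mice, and 0 of 6 anemic mice exceeded the highest control (log2 fold change 0.80, SE 0.31, and 0.36 to 1.17 over the alternatives).

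**Figure D2:**
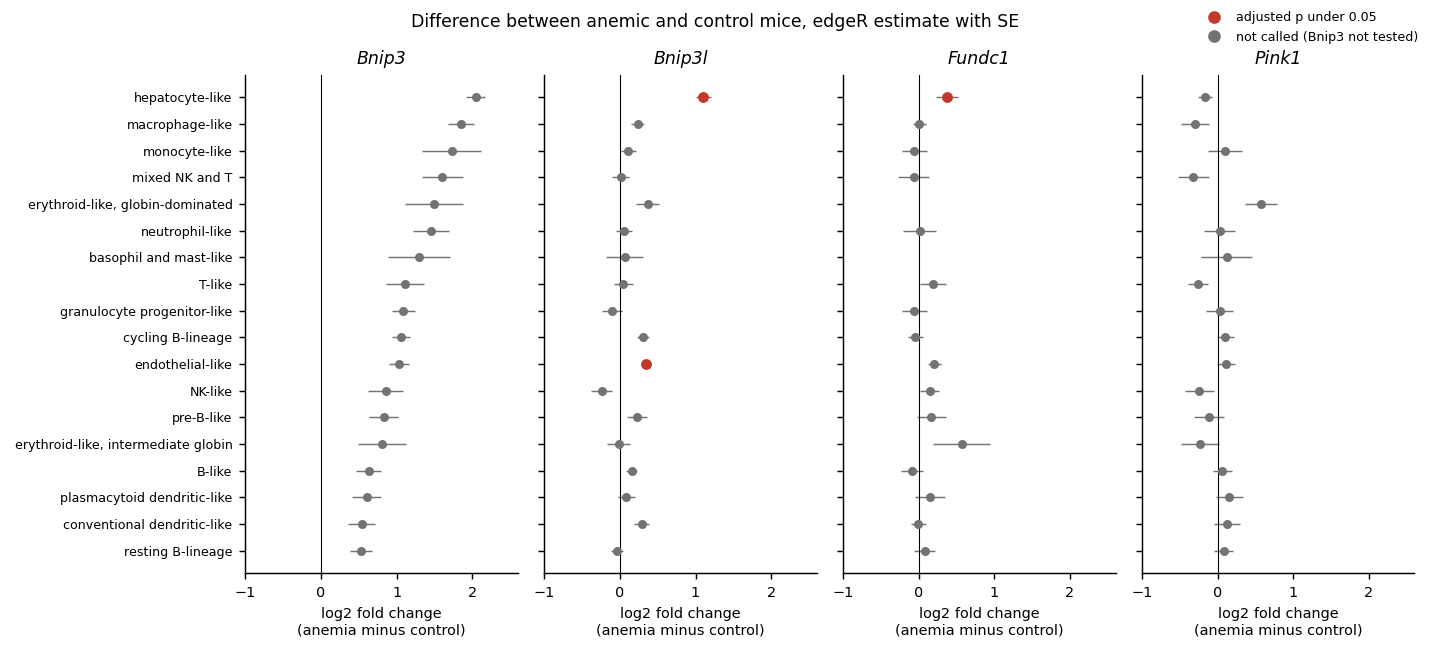
Log2 fold change between anemic and control mice (x axis, edgeR estimate, bars are SE) for the 4 genes in each class (y axis, ordered by the Bnip3 difference), with red points where the adjusted p was under 0.05. All Bnip3 points lie above 0 and are grey because Bnip3 was not tested, and red points appear for Bnip3l in hepatocyte-like and endothelial-like cells and for Fundc1 in hepatocyte-like cells.

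RNA from other cells in the droplets differed between groups in opposite directions for hepatocytes and red cells. Hepatocyte transcripts (10 genes) made up 0.405% of UMIs of macrophage-like cells in controls and 0.257% in anemic mice, and 0.482% and 0.228% in B-like cells. Globin transcripts (10 genes) went from a mean of 0.308% to 0.802% in macrophage-like and from 0.687% to 1.95% in neutrophil-like cells. Bnip3 itself differed between groups in hepatocyte-like cells, and the part of RNA from other cells in the Bnip3 values was not tested. When only the cells with the lower share of globin and hepatocyte RNA were used, the Bnip3 log2 fold change was above 0 in 14 of 14 classes that could be measured, from 0.41 to 1.81, with a median of 1.07. These cells lay at or below the median share of their own class and mouse. No common limit was set, so the difference in this RNA between groups was not equalized.

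Several classes held different mixtures of clusters in the 2 groups. The libraries were clustered together without integration, so clusters can follow mouse or group as well as cell type. Among 32 clusters with at least 20 cells in every mouse, the mean Bnip3 level was higher in anemic mice in 32, and in 19 every anemic mouse exceeded every control, beside 0.850% of all genes tested over the 32 clusters. In the macrophage-like clusters 11 and 14, Bnip3 means went from 37.4 to 120 CPM and from 26.3 to 94.4 CPM. Macrophage-like cluster 7 made up 48.2% of control but 25.7% of anemic macrophage-like cells and had only 4 cells in anemic mouse 2, and its Bnip3 means were 24.0 CPM in 6 control mice and 74.1 CPM in the other 5 anemic mice. In neutrophil-like clusters 8, 21 and 42 they went from 64.4 to 132, from 20.2 to 37.3 and from 6.79 to 30.7 CPM. Monocyte-like cluster 15 held 94.4% of control but 42.2% of anemic monocyte-like cells, and within it the means were 23.9 and 52.9 CPM. The other monocyte-like cluster, 16, drew 78.7% of its cells from anemic mouse 2.

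Bnip3l was highest in globin-dominated erythroid-like cells and was present in all 18 classes. It measured 620 ± 73.0 CPM (SD, n = 12) in globin-dominated erythroid-like cells and 216 ± 23.3 CPM in endothelial-like cells, followed by erythroid-like cells of intermediate globin (188 CPM), monocyte-like (179 CPM), T-like (148 CPM), neutrophil-like (147 CPM) and NK-like cells (145 CPM). The lowest means were 86.6 CPM in hepatocyte-like, 78.4 CPM in cycling B-lineage and 58.1 CPM in conventional dendritic-like cells, and 14 of 17 neighbours in the order differed by less than their SD. The step down from the globin-dominated class was much larger than the spread.

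Globin takes up most of the RNA of a maturing red cell, so levels in this class are also given without globin. Scaled to the UMIs other than globin, Bnip3l reached 4310 ± 307 CPM in globin-dominated erythroid-like cells, with means of 4314 ± 345 CPM in controls and 4307 ± 297 CPM in anemic mice (6 of each). On all UMIs the same cells had 537, 681 and 727 CPM in controls and 527, 571 and 643 CPM in anemic mice, and the groups overlapped.

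Along 5 erythroid-like clusters ordered by their globin share (11.3%, 73.4%, 85.4%, 87.3% and 87.5% of UMIs), Bnip3l was lowest in the first. Its mean level was 188, 532, 647, 644 and 620 CPM of all UMIs, and 209, 1929, 4245, 4832 and 4789 CPM of UMIs other than globin. The first cluster carried the genes of earlier red cell precursors, with Tfrc, the transferrin receptor, at 769 CPM and Klf1, an erythroid transcription factor, at 132 CPM of all UMIs, against 12.4 and 0.6246 CPM in the last. Of UMIs other than globin, Tfrc was at 857 CPM in the first and 93.4 CPM in the last cluster. Klf1 was at 147 and 4.77 CPM on that scale. Slc4a1, the band 3 anion exchanger, had no single direction along the clusters, at 783, 183, 669, 298 and 56.4 CPM of all UMIs and 872, 647, 4350, 2244 and 435 CPM of UMIs other than globin. Mitochondrial transcripts were 4.16% of all UMIs in the first and 2.11% in the last cluster, but of the UMIs other than globin their share was 4.69% in the first and 16.9% in the last. The first and second clusters held 39.0% and 36.1% called doublets, cells that probably come from 2 cells in a droplet, and the second also carried 2.22% hepatocyte RNA.

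**Figure D3:**
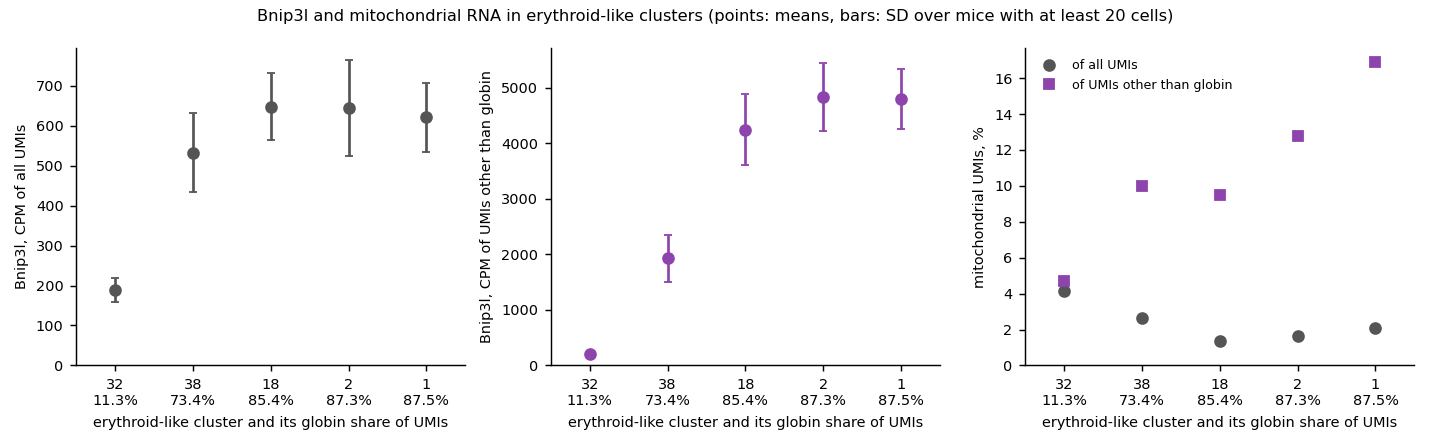
Bnip3l in 5 erythroid-like clusters ordered by globin share (x axis, cluster number and % of UMIs) as CPM of all UMIs (left) and of UMIs other than globin (middle), means and SD over the mice with at least 20 cells, and the mitochondrial % of all UMIs (grey circles) and of UMIs other than globin (purple squares) in the pooled cells of each cluster (right). Bnip3l is at 188 CPM in cluster 32 and between 532 and 647 CPM in the other 4, and the 2 scales of the mitochondrial share move in opposite directions between cluster 32 and cluster 1.

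Between groups, Bnip3l rose in hepatocyte-like and endothelial-like cells. In hepatocyte-like cells it measured 51.0, 60.9 and 65.4 CPM in controls and 98.8, 112 and 132 CPM in anemic mice, so that all 6 anemic mice lay above every control (edgeR log2 fold change 1.10, SE 0.10, adjusted p = 4.98e-07). In the same class edgeR called 20.0% of all genes higher and 21.1% lower. Globin RNA, from the cells in which Bnip3l was highest, averaged 0.396% of UMIs in control and 1.76% in anemic hepatocyte-like cells, and 0.201% and 0.503% in endothelial-like cells, and its part in these differences was not tested. In endothelial-like cells it measured 187, 198 and 210 CPM in controls and 206, 238 and 254 CPM in anemic mice, with 5 of 6 anemic mice above every control (edgeR log2 fold change 0.35, SE 0.07, adjusted p = 0.00245), where 8.39% of all genes were called higher and 11.0% lower. Both stayed called under every other alternative that tested them and with single mice left out, with log2 fold changes of 0.86 to 1.14 and 0.25 to 0.41. The alternative of cells with less globin and hepatocyte RNA leaves out hepatocyte-like cells and so did not test the first.

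In the remaining 16 classes Bnip3l did not pass the edgeR test, and 7 of 18 classes had an unadjusted p under 0.05. Cycling B-lineage cells came closest, with 66.5, 70.5 and 73.9 CPM in controls and 72.1, 84.3 and 105 CPM in anemic mice (edgeR log2 fold change 0.30, adjusted p = 0.0534, and 0.00903 to 0.164 over the alternatives). In macrophage-like cells, which had the second largest Bnip3 difference, the Bnip3l log2 fold change was 0.23 with a 95% interval of 0.07 to 0.40 (edgeR adjusted p = 0.137). The intervals were −0.19 to 0.11 in resting B-lineage, −0.51 to 0.03 in NK-like and −0.08 to 0.31 in monocyte-like cells. For globin-dominated erythroid-like cells the value depended on the scaling, with 0.37 under TMM (trimmed mean of M values, adjusted p = 0.163) and −0.20 on plain library sizes, where the median of all genes was −0.46, while a joint limma voom model called it higher (0.65, adjusted p = 7.61e-12). The adjusted p ran from that value to 0.304 over the alternatives.

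Fundc1 was highest in conventional dendritic-like (53.2 ± 4.73 CPM, SD, n = 12) and macrophage-like cells (46.5 ± 4.89 CPM). Pre-B-like (34.6 CPM), granulocyte progenitor-like (34.5 CPM), plasmacytoid dendritic-like (33.9 CPM), cycling B-lineage (32.1 CPM) and monocyte-like cells (31.3 CPM) formed a group within each other's spread. It was low in hepatocyte-like (14.7 CPM) and neutrophil-like cells (10.2 CPM) and lowest in globin-dominated erythroid-like cells (1.54 CPM), and 12 of 17 neighbours differed by less than their SD. In control mouse 5 no Fundc1 UMI was counted among 697742 of the globin-dominated class, which allows up to 4.30 CPM. Its class means had a correlation of −0.66 with those of Bnip3l (Pearson, log2(CPM + 1), 18 class means), the strongest of the 6 pairs. Globin-dominated erythroid-like cells were both the highest class for Bnip3l (620 CPM) and the lowest for Fundc1. The correlation without this class was not computed, so no general opposition of the 2 genes is read from it. The class means share their mice and libraries, and this value is a description only.

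Of the 16 classes in which Fundc1 had enough UMIs to be tested, 1 was called. That class was hepatocyte-like cells, where edgeR called 20.0% of all genes higher and 21.1% lower. There Fundc1 measured 10.7, 13.7 and 15.5 CPM in controls and 13.2, 15.1 and 22.3 CPM in anemic mice, with 3 of the 6 anemic mice above the highest control (edgeR log2 fold change 0.37, SE 0.14, adjusted p = 0.0461). The groups overlapped, and the call was lost with DESeq2 (adjusted p = 0.0748), with the replicate number as a block (log2 fold change 0.37, edgeR adjusted p = 0.0932), on plain library sizes (log2 fold change 0.13, adjusted p = 0.634), without the count filter (adjusted p = 0.134), at most 10% mitochondrial UMIs (0.577), in the joint voom model (0.0694) and without any 1 of 8 mice (adjusted p = 0.0533 to 0.0987 without control mouse 1, 2, 3 or 5 or anemic mouse 1, 2, 4 or 6). Over all alternatives the adjusted p ran from 0.0117 to 0.634. In endothelial-like cells the log2 fold change was 0.20 (edgeR adjusted p = 0.108, and 0.0484 to 0.430 over the alternatives), and it passed without anemic mouse 1. Fundc1 is X-linked, and Xist and Y-linked counts placed 4 of 6 control and 2 of 6 anemic mice with females. With Y-linked counts as a covariate the hepatocyte-like log2 fold change was 0.49 (edgeR adjusted p = 0.0117). In macrophage-like cells Fundc1 measured 40.5, 46.7 and 54.0 CPM in controls and 38.1, 45.9 and 52.0 CPM in anemic mice (log2 fold change 0.01, adjusted p = 0.970).

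Pink1 was highest in hepatocyte-like cells, at 71.2 ± 10.6 CPM (SD, n = 12), followed by NK-like (54.4 CPM), T-like (52.7 CPM), plasmacytoid dendritic-like (42.4 CPM) and endothelial-like cells (41.8 CPM). Neutrophil-like (20.6 CPM) and conventional dendritic-like cells (17.7 CPM) were lowest. It varied least of the 4 genes among classes, 4.02-fold from highest to lowest, and 16 of 17 neighbours differed by less than their SD.

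No class passed the edgeR test for Pink1, and 1 of 18 had an unadjusted p under 0.05. DESeq2 also called 0 classes and the joint limma voom model 1. In hepatocyte-like cells Pink1 measured 69.2, 81.9 and 85.7 CPM in controls and 57.0, 61.1 and 71.1 CPM in anemic mice, with 5 of 6 anemic mice below every control. The TMM-scaled log2 fold change was −0.16 (SE 0.09, 95% interval −0.34 to 0.01, edgeR adjusted p = 0.152), whereas on plain library sizes it was −0.41 (adjusted p = 9.75e-04), where the median of all genes was −0.31, and over all alternatives the adjusted p ran from 9.75e-04 to 0.424. In globin-dominated erythroid-like cells it was 0.57 (adjusted p = 0.0980), with nearly equal mean levels of 28.2 CPM in both groups on all UMIs, and was called without anemic mouse 5 (0.63, adjusted p = 0.0410, and 3.00e-04 to 0.876 over all alternatives). In macrophage-like cells the interval was −0.65 to 0.05 and in NK-like cells −0.62 to 0.13.

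Hepatocyte-like cells, which had the largest Bnip3 difference and the largest called Bnip3l difference, came from 4 clusters (13, 20, 23 and 26) in unequal parts. Cluster 23 made up 30.4% of control and 13.95% of anemic hepatocyte-like cells, and cluster 20 made up 15.2% and 31.1%. Clusters 13 and 20 had median totals of 807 and 714 UMIs per cell and none of the hepatocyte markers among their leading 10 genes by fold, and 29.9% of cluster 23 were called doublets. Within the clusters, Bnip3 means went from 198 to 621 CPM in 13, from 282 to 838 CPM in 20, from 86.5 to 196 CPM in 23 and from 217 to 592 CPM in 26, with no overlap in any.

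The clusters were tested for the other 3 genes with an exact two-sided permutation test over mice, adjusted over 96 tests of 3 genes in 32 clusters, of which 9 passed, each with an exact p of 0.00433 or less. Such a p was found for 2.35% of all genes in the higher and 3.66% in the lower direction over the 4 hepatocyte-like clusters, and for 1.13% in the higher direction over the other 28 clusters. Bnip3l was higher in each of the 4 hepatocyte-like clusters, from 64.5 to 120, from 101 to 169, from 55.0 to 85.4 and from 57.3 to 109 CPM, with 6 of 6 anemic mice above every control (exact p = 0.00216, the smallest the design allows, adjusted p = 0.0297). Pink1 was lower in clusters 13 (92.3 to 49.2 CPM) and 26 (103 to 67.6 CPM) at the same adjusted p, and measured 141 and 93.3 CPM in cluster 20 (exact test, adjusted p = 0.333) and 60.7 and 47.8 CPM in cluster 23 (adjusted p = 0.0866). Fundc1 passed in none of the 4, with means of 20.1 and 17.6 CPM in cluster 13, 22.1 and 27.4 CPM in 20, 11.3 and 12.8 CPM in 23 and 12.6 and 13.5 CPM in 26 (exact test, adjusted p = 0.783, 0.783, 0.965 and 0.875). These values are shares of all UMIs without TMM scaling. Endothelial-like clusters were also in unequal parts, with cluster 12 at 35.9% of control and 12.4% of anemic endothelial-like cells and cluster 17 at 13.5% and 25.8%. Of the 5 endothelial-like clusters Bnip3l passed in 35 (162 to 200 CPM), and it measured 202 and 238 CPM in cluster 5, 210 and 249.6 CPM in 12, 205 and 237 CPM in 17 and 188 and 254 CPM in 29 (exact test, adjusted p = 0.128, 0.219, 0.0756 and 0.0623). The remaining calls were Bnip3l in the cycling B-lineage cluster (70.4 to 86.5 CPM) and in the conventional dendritic-like cluster (51.1 to 65.0 CPM). In the globin-dominated erythroid-like clusters 1 and 2 Bnip3l did not pass. It measured 666 and 574.5 CPM in cluster 1 and 711 and 577 CPM in cluster 2 (exact test, adjusted p = 0.343 and 0.219).

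The share of RNA from the 13 mitochondrial genes, a readout that did not choose the members, was lower in hepatocyte-like cells of anemic mice. It was 10.6, 10.8 and 12.0% of UMIs in controls and 3.95, 6.37 and 7.47% in anemic mice, with means of 11.0 ± 0.518% and 6.18 ± 1.28% and no overlap (exact permutation p = 0.00216, adjusted over 18 classes 0.0390). Within the 4 clusters the difference was not found, with adjusted p of 0.338 to 0.632 in the exact test. Cluster 23 had the highest share (17.7% in controls and 16.5% in anemic mice) and was the smaller part of the class in anemic mice, while the other 3 clusters had between 1.93 and 3.38% in either group. The erythroid-like class of intermediate globin had 4.88% and 4.02% (exact p = 0.0108, adjusted 0.0974), which passed without control mouse 3 (adjusted p = 0.0195, and 0.0195 to 0.273 without each mouse in turn), and the remaining 16 classes had an unadjusted p of 0.05 or more.

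**Figure D4:**
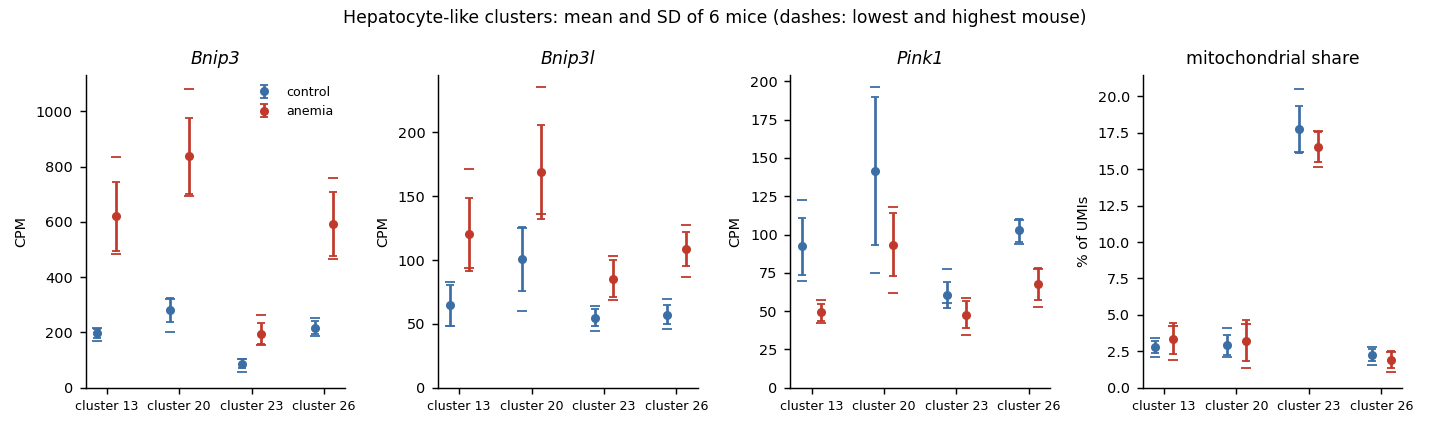
Bnip3, Bnip3l and Pink1 (CPM) and the mitochondrial share (% of UMIs) in the 4 hepatocyte-like clusters (x axis), as mean and SD of 6 control (blue) and 6 anemic mice (red) with dashes at the lowest and highest mouse. Bnip3 and Bnip3l ranges do not overlap in any cluster, and the mitochondrial share is near 17% in cluster 23 and under 5% in the other 3 clusters.

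The other genes of the pathway were followed as a list of 66 mitophagy and autophagy genes without the 4 members, of which 65 were in the files and 64 could be tested in at least 1 class. Of 1070 tests over the 18 classes, edgeR called 35 higher and 15 lower in anemia, with 90 and 50 at an unadjusted p under 0.05. These are 3.27 and 1.40% of the tests, beside 2.45% higher and 2.78% lower of all genes over the 18 classes. Hepatocyte-like cells held 21 of the higher and 9 of the lower calls among 64 genes, with a median log2 fold change of 0.02 against −0.06 for all genes. These are 32.8 and 14.1% of the list, beside the 20.0 and 21.1% of all genes above. On plain library sizes the split in hepatocyte-like cells turned to 10 higher and 26 lower, and over all classes to 13 and 39. With at most 10% mitochondrial UMIs per cell, hepatocyte-like cells had 10 higher and 3 lower calls.

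By role, hepatocyte-like cells had 8 of 18 receptor and ubiquitin genes called higher and 3 lower, 10 and 4 of 30 genes of the autophagosome machinery, 1 and 1 of 6 adaptors, and 2 and 1 of 8 fission and fusion genes. Gabarapl2, Map1lc3b and Gabarap encode proteins that are attached to the autophagosome membrane. In these cells Gabarapl2 went from 95.1 to 154 CPM (log2 fold change 0.87, edgeR adjusted p = 2.69e-06), Map1lc3b from 64.3 to 103 CPM (0.84, 5.34e-06) and Gabarap from 248 to 390 CPM (0.83, 9.43e-07). Fis1, a mitochondrial fission factor, rose from 99.3 to 134 CPM (0.61, 5.80e-05). In each of these 4 genes all 6 anemic mice lay above every control. Atg16l1, part of the complex that lipidates these proteins, fell from 29.7 to 15.9 CPM (−0.72, 3.68e-04), and Ambra1, an autophagy regulator, from 57.2 to 35.2 CPM (−0.58, 0.00232). Sqstm1, the adaptor also known as p62, fell from 130 to 91.3 CPM (−0.34, 0.00963). On plain library sizes these 7 genes kept their direction and their call, but at most 10% mitochondrial UMIs the calls of Fis1, Ambra1 and Sqstm1 were lost (edgeR adjusted p = 0.0588, 0.189 and 0.212), that of Sqstm1 also at Leiden resolution 1 (0.0995). Cluster 23 made up 30.4% of control and 13.95% of anemic hepatocyte-like cells, and these genes are not given by cluster. The part of this changed mixture in their differences was not tested.

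Other classes held few calls in this list, apart from the globin-dominated erythroid-like cells. There, 10 of 39 genes were called higher and 0 lower by edgeR, with 1 lower at an unadjusted p under 0.05, where 6.62% of all genes were called higher and 1.71% lower. The list's median log2 fold change was 0.25 against 0.01 for all genes. The largest were Atg4a (1.03, edgeR adjusted p = 0.0118), Tax1bp1 (1.02, 0.00489) and Sqstm1 (0.97, 0.00435), and Gabarapl2 went from 842 to 980 CPM (0.76, 0.00434). On plain library sizes 2 of the list were higher and 1 lower in this class, and the calls of Atg4a, Sqstm1 and Gabarapl2 were lost. The clusters of this class were in unequal parts, with cluster 1 at 56.3% of control and 36.7% of anemic cells. Cluster 2 was at 29.6% and 43.25%, and cluster 18 at 6.16% and 16.0%. The part of this mixture in the calls was not tested. In endothelial-like cells 3 of 64 were higher, among them Vdac1 (0.46, 0.00312), and 4 lower, among them Atg16l1 (−0.47, 0.0427) and Atg7 (−0.36, 0.00193), and on plain library sizes 1 was higher and 11 lower. The Atg16l1 call in this class was lost in 11 of 24 alternatives, among them without any single control mouse or anemic mouse 2, 3 or 5. The list held 5 higher calls there without control mouse 3, and 2 lower calls without control mouse 1, 2, 4 or 6 or anemic mouse 2 or 5. In macrophage-like cells only Opa1, a fusion gene of the inner membrane, was called (28.3 to 35.2 CPM, 0.38, 0.0326, and lost in 13 of 24 alternatives, among them without any single control mouse or anemic mouse 3 or 5, with adjusted p of 0.00435 to 0.0823), where 1.35% of all genes were higher and 1.16% lower. In the other 14 classes 0 of 839 tests were called higher and 2 lower (Sqstm1 in conventional dendritic-like and Bcl2l13 in resting B-lineage cells, the latter lost in 15 of 24 alternatives), with 36 and 20 at an unadjusted p under 0.05 and 0 and 3 by DESeq2, beside 0.325% higher and 0.558% lower of all genes there.

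Bnip3 is a known HIF target, and a list of 36 other known HIF targets, most of them glycolytic genes, is given beside it. Of 566 tests over the 18 classes, edgeR called 116 higher and 3 lower in anemia, beside 2.45% higher and 2.78% lower of all genes. In endothelial-like cells 27 of 36 were higher (all genes, 8.39%) and 0 lower, with 2 lower at an unadjusted p under 0.05, and the median log2 fold change was 0.59. In macrophage-like cells 21 of 36 were higher (all genes, 1.35%; median 0.72), and in hepatocyte-like cells 20 of 30 were higher (all genes, 20.0%) and 2 lower (all genes, 21.1%; median 0.84). In globin-dominated erythroid-like cells 7 of 20 were higher (all genes, 6.62%; median 0.50), and 4 without control mouse 1 or 6. In the other 14 classes 41 of 444 tests were higher (all genes, 0.325%) and 1 lower (median 0.33), with 15 higher without control mouse 4 and 17 to 24 without control mouse 1, 2, 5 or 6 or anemic mouse 3. On plain library sizes 104 were higher and 6 lower, with 1 of 20 higher in globin-dominated erythroid-like cells. The median of all genes lay between −0.06 and 0.03 in these 4 classes and was 0.01 in the other 14 together. Glycolysis and glucose uptake genes made up 79 of the higher calls in 323 tests, and none of them was called lower, with 2 lower at an unadjusted p under 0.05.

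Aldoa and Tpi1 were called higher in 10 classes each, Pgk1 in 9, Eno1 in 8 and Mif, a cytokine, in 7. In hepatocyte-like cells the glycolytic enzymes Gpi1 (118 to 491 CPM, log2 fold change 2.23, edgeR adjusted p = 7.02e-10) and Gapdh (1507 to 5286 CPM, 1.98, 2.84e-10) and Ankrd37 (8.40 to 35.6 CPM, 2.26, 6.57e-07) changed most. The lower calls were Vegfa and Kdm3a in hepatocyte-like and Bhlhe40 in plasmacytoid dendritic-like cells, of which Kdm3a was lost in 6 of 22 alternatives, among them without control mouse 6 or anemic mouse 3. Vegfa, the vascular growth factor, fell in hepatocyte-like cells from 73.4 to 42.7 CPM (−0.58, 1.66e-04), but rose in macrophage-like cells from 3.97 to 34.4 CPM (log2 fold change 3.14, edgeR adjusted p = 1.70e-05) and in endothelial-like cells from 65.1 to 90.4 CPM (0.59, 0.0232). The Vegfa call was lost in hepatocyte-like cells at most 10% mitochondrial UMIs (edgeR adjusted p = 0.0534) and in endothelial-like cells without anemic mouse 1 (0.0522) and with the Y-linked covariate (0.0542). Endothelial-like cells also had more Slc2a1, a glucose transporter (1.66, 1.30e-06), Adm (1.64, 7.12e-06) and Pgk1 (275 to 634 CPM, 1.33, 2.19e-07). Macrophage-like cells had more Ddit4 (2.29, 0.0173, but 0.0537 without control mouse 1 and 0.0754 with the Y-linked covariate) and Slc16a3, a lactate transporter (1.75, 4.03e-04). Glycolytic genes such as Gapdh have near-identical pseudogene copies, so their UMIs may be divided unevenly by the counting. HIF target values are not given by cluster, and the part of the changed cluster mixtures in them was not tested. No gene of the list passed in B-like, T-like, basophil and mast-like, granulocyte progenitor-like or neutrophil-like cells, where 4, 13, 7, 17 and 19 genes were higher at an unadjusted p under 0.05. Counts at an unadjusted p, here and above, have no share of all genes beside them and are not read as differences.

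**Figure D5:**
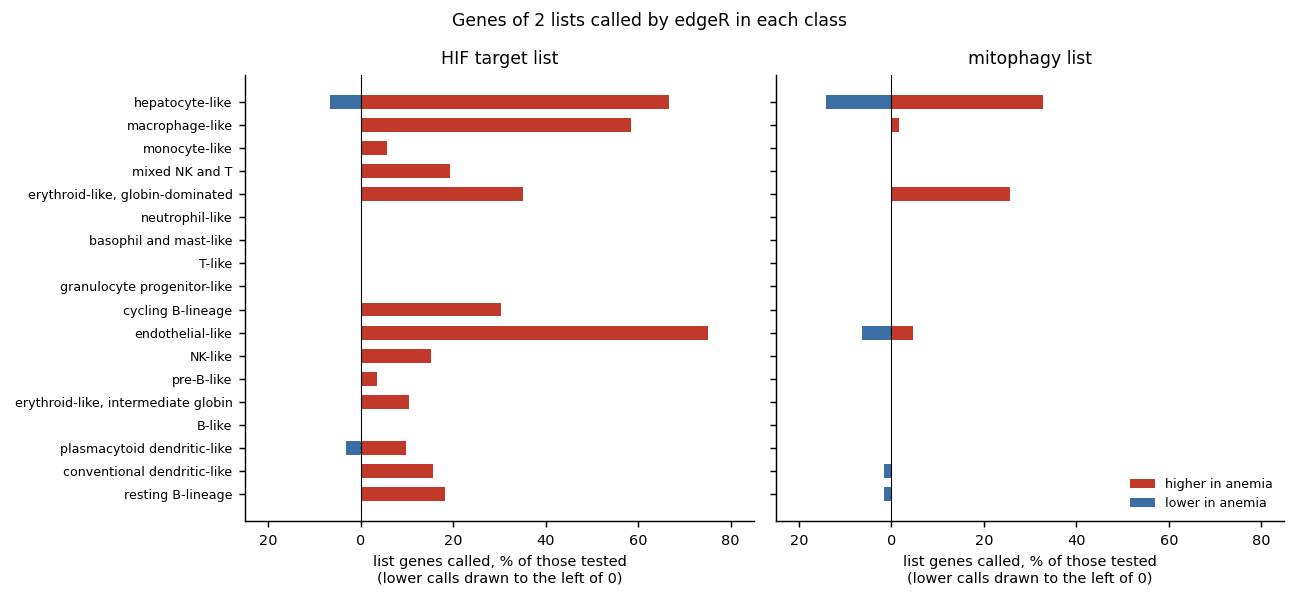
Share of tested list genes called by edgeR in each class (x axis, %, lower calls drawn to the left of 0; y axis, classes ordered by the Bnip3 difference) for the HIF target list (left) and the mitophagy list (right), red for higher and blue for lower in anemia. HIF target calls reach 27 of 36 genes in endothelial-like and 21 of 36 in macrophage-like cells, while mitophagy calls lie mainly in hepatocyte-like and globin-dominated erythroid-like cells.

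The promoter letters printed above were also counted in these lists. ACGTG was held by 22 of 31 HIF target windows (70.97%) and by 22 of 54 mitophagy windows (40.74%), beside 21.78% of all genes. GCGTG was held by 20 of 31 (64.52%) and 34 of 54 windows (62.96%), beside 35.15% of all genes. Base composition and promoter type were not matched between these sets, so the shares are descriptions.

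Genes whose levels over the 18 classes were most like those of each member were named by Pearson correlation of log2(CPM + 1) class means among 13047 genes of at least 10 CPM in a class. For Bnip3 these were Kank1 (0.86), Nicn1 (0.85), Tmem220 (0.85), Dlgap1 (0.83) and Lims2 (0.83). For Bnip3l they were Isca1, an iron-sulfur cluster assembly gene (0.83), Bpgm, the enzyme that makes the red cell metabolite bisphosphoglycerate (0.80), Gm10371 (0.79), the globin gene Hbq1a (0.78) and Rsad2 (0.77). Fundc1 was most like Rab29 (0.95), Hps5 (0.95), Coro1b (0.94), Tm2d2 (0.94) and Hsd17b12 (0.93), and Pink1 most like Sec23a (0.85), Plekha7 (0.79), the mitochondrial gene mt-Nd2 (0.77), Tacc2 (0.77) and Pdk2 (0.76). The 18 means share 12 mice and their libraries, and the highest values were found by search among many genes.

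Within the 14 immune classes, the deviations of Bnip3 from its class mean over 168 points (14 classes in 12 mice) were most like those of Mif (0.70), Tpi1 (0.69), Pgk1 (0.67), Fabp4 (0.66) and Aldoa (0.655) among 11580 genes. The points share mice and span both groups, so these correlations contain the difference between control and anemic mice that chose Bnip3. In whole libraries, all cells together, Bnip3 averaged 48.6 ± 4.90 CPM over the 6 controls and 111 ± 26.0 CPM over the 6 anemic mice, with ranges of 42.5 to 54.2 and 67.8 to 147 CPM, and these values also carry the changed cell mixture.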

How the data were processed

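Raw UMI counts per gene and cell barcode were deposited by the authors as 1 matrix per library, made with the 10x software from reads aligned to the mouse transcriptome, without normalization. Barcodes were kept if they held 500 to 50000 UMIs, of which no more than 50% were mitochondrial. Cells of all libraries were clustered (scanpy 1.11.5, 2000 variable genes without the members, 20 principal components, 20 neighbours, Leiden resolution 2), and clusters in which at least 3 markers of 1 type were raised were named. No integration or batch correction was applied before clustering, whereas the paper integrated its libraries. Simulated doublets (50 neighbours) marked 13.9% of cells, and clusters with over 50% doublets were left unnamed (11.44% of control and 10.83% of anemic cells were unnamed for any reason).

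UMIs were summed per mouse and class and tested with the edgeR 4.0.16 quasi-likelihood test (TMM scaling, R 4.3.3) over genes averaging 5 or more UMIs per mouse, without mitochondrial and ribosomal protein genes, with Benjamini-Hochberg adjustment over all genes of a class and a threshold of 0.05. DESeq2 1.42.0 and limma 3.58.1 (a joint voom model) were alternatives, beside no TMM, no count filter, a minimum of 50 UMIs, a replicate block, Y-linked counts as a covariate, at most 10% mitochondrial UMIs, no doublets, cells with less globin and hepatocyte RNA, no globin genes, resolution 1 and each mouse left out. On simulated counts with 100 genes changed by a log2 fold change of 1 and 100 by 2, edgeR recovered 70 and 96 of them in macrophage-like (14256 genes), 48 and 86 in monocyte-like (10946 genes) and 26 and 86 in globin-dominated erythroid-like cells (4911 genes), with 4 unchanged genes called in each.

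Mitochondrial shares were tested by exact two-sided permutation over 924 splits of the mice. The named genes are the 4 members and, from each list, the genes called in the most classes (up to 5 per direction) and up to 3 called genes per direction and class with the largest change and a mean of at least 10 CPM, of which 1 is not reported here. Members and lists were chosen with earlier results of these data known. Mice of a group are separate animals. Promoter windows were taken from RefSeq (GRCm38.p6), which held 3 of the 4 members, and gene positions from GENCODE for GRCm38.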

Additional observations from a re-analysis of the deposited data

Results flagged for a closer look

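In 14 of 180 groups of 6 mice the highest or lowest mouse stood far from the other 5 by Dixon's test, and chance alone marks about 1 in 20 groups. For Bnip3 these were anemic mouse 5 in B-like cells (30.7 CPM, next 19.8 CPM) and in globin-dominated erythroid-like cells (27.8 CPM, next 13.2 CPM), and anemic mouse 2 in neutrophil-like cells (159 CPM, next 84.7 CPM). For Bnip3l they were control mouse 5 in T-like cells (lowest, 117 CPM, next 147 CPM) and in neutrophil-like cells (highest, 168 CPM, next 140 CPM), and anemic mouse 6 in basophil and mast-like cells (lowest, 46.0 CPM, next 95.2 CPM).

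For Fundc1 they were control mouse 2 in erythroid-like cells of intermediate globin (18.2 CPM, next 9.12 CPM), anemic mouse 2 in hepatocyte-like cells (22.3 CPM, next 15.8 CPM) and anemic mouse 5 in the mixed NK and T cluster (47.8 CPM, next 22.5 CPM). For Pink1 it was control mouse 3 in globin-dominated erythroid-like cells (39.6 CPM, next 28.3 CPM). The mitochondrial share stood apart in basophil and mast-like cells of control mouse 5 (4.86%, next 3.56%) and anemic mouse 6 (4.78%, next 3.50%), and in control mouse 5 also in endothelial-like (4.54%, next 4.25%) and hepatocyte-like cells (12.0%, next 10.9%). Control mouse 5 accounted for 5 of the 14 values, anemic mouse 5 for 3, anemic mice 2 and 6 for 2 each and control mice 2 and 3 for 1 each. Without anemic mouse 2 the Fundc1 difference in hepatocyte-like cells was 0.30 on the log2 scale and no longer passed the edgeR test (adjusted p = 0.0987, and 0.0117 to 0.634 over the alternatives). No tested member was called in opposite directions in 2 classes, so the difference between classes was not tested.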

How the results depend on the processing

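The 2 Bnip3l calls were kept under every alternative that tested them; cells with the lower share of globin and hepatocyte RNA leave out hepatocyte-like cells. With clusters of a class weighted equally, chosen after seeing the data, the test was also changed to an exact permutation test on plain CPM adjusted over the classes. It called Bnip3l in 4 classes, and the 2 added (conventional dendritic-like and cycling B-lineage) have 1 cluster each, so that weighting could not change them. With single mice left out the count was 2 to 3. The single Fundc1 call dropped to 0 with DESeq2, without TMM, without the count filter, at a minimum of 50 UMIs (where Fundc1 in hepatocyte-like cells was not tested), with the replicate block, at most 10% mitochondrial UMIs, in cells with the lower share of globin and hepatocyte RNA, in the joint voom model and with clusters weighted equally, and was 0 to 1 without single mice. Without anemic mouse 1 the single call was in endothelial-like and not in hepatocyte-like cells. Pink1 went from 0 to 1 class without TMM, without the filter, at 50 UMIs, at most 10% mitochondrial UMIs, in the voom model and with clusters weighted equally, and was 0 to 1 without single mice. The class and direction were not the same throughout. Without TMM and with clusters weighted equally it was hepatocyte-like cells, lower in anemia. Without anemic mouse 5 it was globin-dominated erythroid-like cells, higher in anemia. In the remaining settings it was either of these classes.

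Mitophagy list calls went from 50 to 31 at most 10% mitochondrial UMIs and to 8 in cells with the lower share of globin and hepatocyte RNA, which leaves out hepatocyte-like and erythroid-like classes by construction, were 70 in the voom model, and were 41 to 49 without single mice. HIF target calls went from 119 to 183 without the filter and to 72 in the lower-share cells, and were 84 to 122 without single mice. The single mitochondrial share call dropped to 0 at most 10% mitochondrial UMIs (hepatocyte-like means 3.03 and 2.39%), and in the lower-share cells, and was 1 to 2 without single mice. With the replicate block it was 0, fixed by the design, since a sign-flip test of 6 pairs gives no p under 0.03125 and could not pass for 1 class after adjustment over 18. The Bnip3 median over classes was 1.01 to 1.14 without single mice, 1.05 with the replicate block and 1.42 at 50 UMIs, where 7 classes remained. The Bnip3l level in globin-dominated erythroid-like cells was 620 CPM of all UMIs and 4310 CPM without globin. Other causes were not tested.

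Replicate numbers were not treated as pairs in the main test, and whether they pair some of the mice is not known. Same-numbered control and anemic mice correlated from −0.020 to 0.794 in their deviations from the group means over whole libraries, 2 of 6 pairs were over 0.1 and 1 correlated best with its own number. By class, 1 to 4 of 6 pairs were over 0.1, with 4 in macrophage-like, conventional dendritic-like and globin-dominated erythroid-like cells, and all 6 were above 0 in the first 2 of these. The block gave 34 higher and 16 lower mitophagy and 132 higher and 4 lower HIF target calls. No called value of a member changed sign. Depth limits Fundc1 most, with 33 UMIs in all in globin-dominated erythroid-like and 31 in basophil and mast-like cells.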
